A study of Mus musculus with 12 samples.

Results

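Notch signalling was followed through 10 genes in ribosome-bound RNA of cortical astrocytes from Fmr1 knockout (KO) and wild-type (WT) mice. The genes were chosen by name as the pathway's receptors (Notch1, Notch2, Notch3), ligands (Dll1, Jag1), DNA-binding effector (Rbpj) and target repressors (Hes1, Hes5, Hey1, Hey2), and all 10 were found once each among the 52550 features of the count table. Both genotypes carried the Aldh1l1-TRAP transgene, in which the Aldh1l1 promoter, active in astrocytes, drives an eGFP-tagged ribosomal protein. Somatosensory cortex of these mice, on a mixed FVB and C57 background at postnatal day 40, was homogenised and tagged ribosomes were pulled down with anti-eGFP beads. The KO group (Fmr1−/y males, written with no restriction of the allele to astrocytes) had 3 libraries, numbered 14, 16 and 18, and the WT group (Fmr1+/y) had 3 libraries, numbered 13, 15 and 17. The labels do not say whether each library came from its own mouse or from pooled animals, so each p-value reflects library-to-library spread only.

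In the Notch pathway a membrane ligand on one cell binds a Notch receptor on its neighbour. Proteases of the ADAM family and then gamma-secretase cut the receptor, and the freed intracellular domain enters the nucleus, where it joins RBPJ and Mastermind-like coactivators to switch on genes of the Hes and Hey families. Those genes encode basic helix-loop-helix repressors that hold back neuronal genes. In the developing cortex the pathway is known for keeping radial glia undifferentiated and for favouring astrocyte over neuron production, and adult astrocytes continue to express its receptors.

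The letters that RBPJ is known to recognise, GTGGGAA or its reverse TTCCCAC, were searched on both strands in the 250 bases upstream of the start sites that RefSeq gives on GRCm38.p6, the same assembly as mm10. Windows were found for 8 of the 10 genes, all but Hes1 and Hey1. Hes5 held the 7 letters at 2 places and Hey2 at 1, and these stretches are shown because they belong to target genes whose values follow. Each is given on the gene's own strand from 5′ to 3′, with the RBPJ letters in capitals and 11 bases on either side.
Hes5 (chr4:154960686-154960714, plus strand): gggcgagcgcgTTCCCACagcccggacat
Hes5 (chr4:154960829-154960857, plus strand): ggccgccgagtGTGGGAAcggccgcggcg
Hey2 (chr10:30842973-30843001, minus strand): gcgcggtggcaTTCCCACgcctctgccaa
The first Hes5 stretch has its capitals 226 to 220 bases upstream of the start and the second 83 to 77 bases upstream, in opposite orientations. Both Hes5 stretches lie upstream of the start site of that window but within the wider span that RefSeq gives the gene, 154960626 to 154962372. The Hey2 capitals lie 207 to 201 bases upstream, outside the gene's span. Of all 32851 RefSeq windows of this length, 5.42% held the 7 letters at least once. The shorter core TGGGAA, which the longer letters contain, occurred in 21.6% of all windows and in 3 of these genes, Hes5, Hey2 and Rbpj itself. A match of letters is a description of sequence and does not show that RBPJ was bound.

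Depth and composition differed between libraries. Summed counts ran from 10953978 to 21696894 in the KO and from 19787554 to 22397230 in the WT. The 3 features on which ribosomal RNA reads are known to collect took 35.6% and 45.1% of KO libraries 14 and 16, 0.892% of KO library 18, and 0.939% to 7.45% of WT libraries. Fmr1, the gene knocked out, stood at 4.32, 4.22 and 1.32 CPM (counts scaled to library size and by TMM) in KO libraries 14, 16 and 18. In WT libraries 13, 15 and 17 it stood at 31.6, 38.4 and 37.0 CPM. The 12 astrocyte markers summed to between 25462 and 29254 CPM in the KO and between 25941 and 30748 CPM in the WT, whereas the 10 neuron markers summed to between 1583 and 2165 CPM in the KO and between 1151 and 2060 CPM in the WT. Below, CPM values are levels of one gene across libraries, and they are not corrected for transcript length, so they do not rank one gene against another.

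None of the 10 genes differed between genotypes by the threshold used, an adjusted p of 0.05 in edgeR's quasi-likelihood test over the 14990 genes kept by the filter on low counts. All 10 passed that filter. The log2 fold change was positive for 5 and negative for 5, and the median log2 fold change over the 10 was 0.02, beside -0.0019 over all genes kept. The KO and WT libraries overlapped in every one of the 10, where every KO library lay above every WT library in 2.95% of all genes and below in 3.25%. The test called 0% of all genes, and 1.77% of all genes had an unadjusted p under 0.05 against 0 of these 10. Fmr1 itself was not called, at a log2 fold change of -3.53 (edgeR quasi-likelihood adjusted p = 0.2995, unadjusted p = 1.998e-05). That was the smallest adjusted p of all genes kept. A test that did not call this loss could also miss differences of the size seen in the 10. DESeq2 and edgeR's exact test called 0.0534% and 0.06% of all genes and limma voom called 0%, and none of the 10 was among those calls or at an unadjusted p under 0.05 in any of these tools. In the authors' deposited table, which lists 14843 features, 85 had an adjusted p under 0.05 and 0 of those were among the 10. That table holds 2 entries per library, which the main fit here summed, and the test behind it is not stated.

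**Figure D1:**
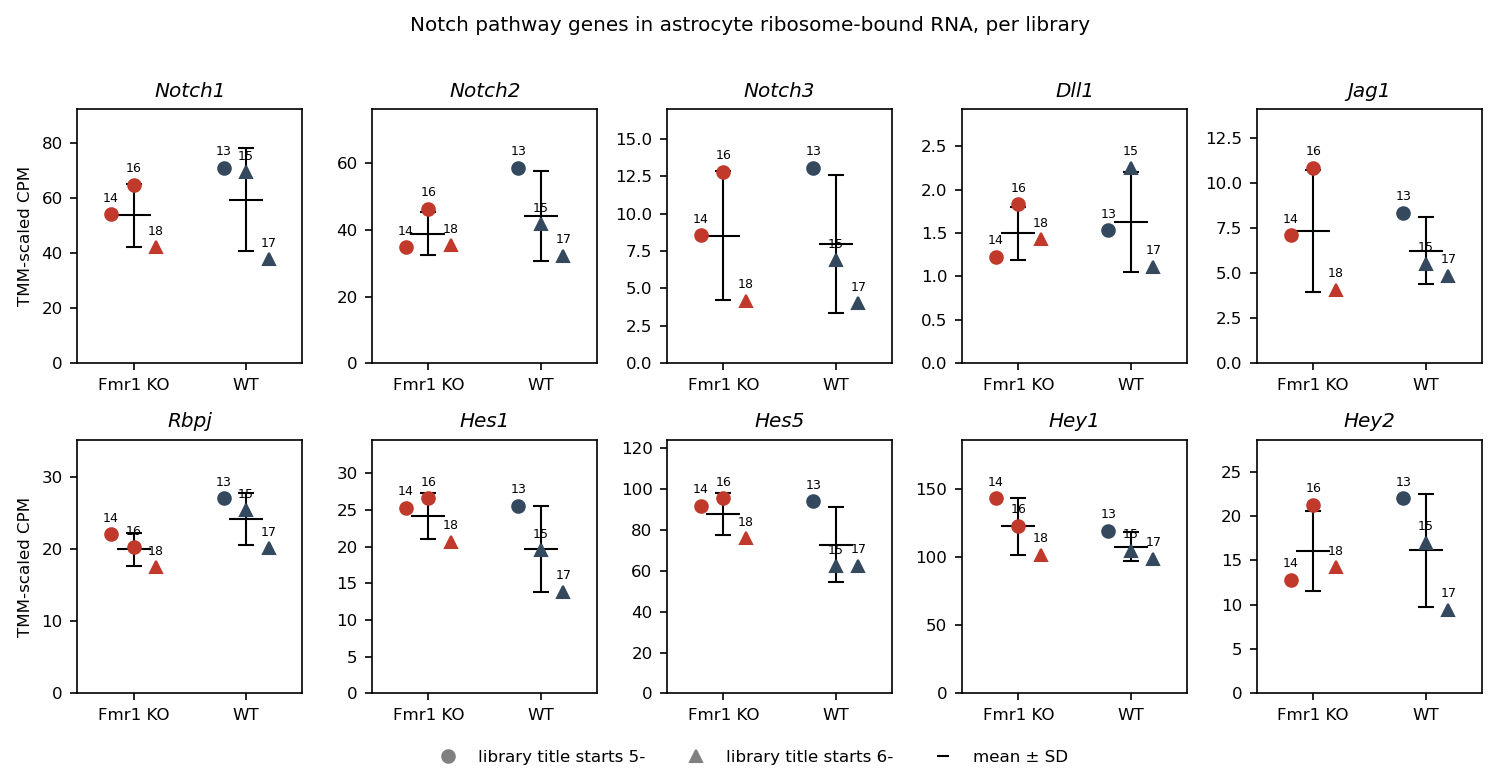
Levels of the 10 Notch pathway genes in TMM-scaled CPM (vertical axes, starting at 0), with the 3 Fmr1 KO libraries left and the 3 WT libraries right of each panel, labelled by library number. Bars are mean ± SD (n = 3) and the symbol shows the first number in the library title. In every panel the genotypes overlap, and for Hes1 and Hes5 the WT library 13 sits at 25.6 and 94.0 CPM, beside KO libraries 14 and 16.

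Notch1, the receptor best known from neural progenitors (chromosome 2, 26457902 to 26503822), stood at 54.0, 64.8 and 42.2 CPM in KO libraries 14, 16 and 18. In WT libraries 13, 15 and 17 it stood at 70.9, 69.4 and 37.7 CPM. Wild-type library 17 was lowest and the other WT libraries highest, so the KO range lay inside the WT range. The mean was 53.65 ± 11.3 CPM in the KO and 59.3 ± 18.7 CPM in the WT (SD, n = 3 each), a log2 fold change of -0.15 (SE 0.26), and the 95% interval of the fold ran from 0.594 to 1.37 (edgeR quasi-likelihood adjusted p = 1, exact permutation p = 0.8). Notch1's log2 fold change rested on single libraries, since it was -0.00027 without KO library 18, -0.0020 without WT library 13 and -0.0086 without WT library 15, and -0.39 without WT library 17. The smallest two-sided p that 3 libraries against 3 allow in that exact permutation test is 0.1.

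Notch2, a receptor also carried by glia (chromosome 3, 98013538 to 98150367), stood at 34.8, 46.3 and 35.5 CPM in KO libraries 14, 16 and 18, against 58.6, 41.75 and 32.2 CPM in WT libraries 13, 15 and 17. Library 13 was the highest of all and library 17 the lowest, both WT. The log2 fold change was -0.19 (SE 0.23; 95% interval of the fold 0.609 to 1.26), and it turned to 0.067 when WT library 13 was left out. Notch3, known in the brain mainly from pericytes and smooth muscle of vessels (chromosome 17, 32120820 to 32166896), was the most uneven of the receptors. It stood at 8.565, 12.8 and 4.18 CPM in KO libraries 14, 16 and 18 and at 13.1, 6.87 and 4.02 CPM in WT libraries 13, 15 and 17, so the highest library was 3.07 times the lowest in the KO and 3.25 times in the WT. The log2 fold change between genotypes was 0.06 (SE 0.50), and its 95% interval allowed a fold from 0.469 to 2.32.

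Markers of vascular cells were read beside Notch3. The 10 endothelial markers summed to 4.98, 7.60 and 14.0 CPM in KO libraries 14, 16 and 18 and to 7.11, 10.9 and 12.2 CPM in WT libraries 13, 15 and 17, and 2 of them, Emcn and Kdr, were at 0 in at least 1 library. None of these markers exceeded 3.02 CPM in a library. The 11 mural and fibroblast markers summed to between 68.05 and 72.1 CPM in the KO and between 66.3 and 73.1 CPM in the WT. Pdgfrb, the growth factor receptor of pericytes, made up the largest share and stood at 32.2, 44.5 and 26.1 CPM in KO libraries 14, 16 and 18 and at 37.7, 34.9 and 24.7 CPM in WT libraries 13, 15 and 17, highest and lowest within each genotype in the same libraries as Notch3. Rgs5, another pericyte marker, was between 5.71 and 6.85 CPM in the KO and between 4.98 and 7.31 CPM in the WT, lowest in the KO in library 14 and highest in the WT in library 17. Vtn, of the same list, was lowest in the KO in library 16, at 5.21 CPM. The order of Notch3 was not particular to mural markers. The astrocyte markers Sox9, Slc1a2, Slc1a3, Gjb6, Atp1b2, Gja1 and Fgfr3 had it too. Fgfr3 stood at 544, 737.1 and 377 CPM in KO libraries 14, 16 and 18. In WT libraries 13, 15 and 17 Fgfr3 stood at 649.2, 531.5 and 300.8 CPM. The astrocyte markers Aldoc, Gfap, Aqp4, Glul and Aldh1l1 did not have it, and Glul was highest in the KO in library 18. The part of mural RNA in the Notch3 values was not tested, and in these bulk libraries fewer cells of a type and less RNA per cell cannot be told apart.

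The ligands were thinly covered. Jag1, the ligand encoded on chromosome 2 from 137081451 to 137116520, had 77 to 105 counts per library in the KO and 127 to 196 in the WT. It stood at 7.10, 10.8 and 4.06 CPM in KO libraries 14, 16 and 18 and at 8.35, 5.53 and 4.86 CPM in WT libraries 13, 15 and 17, so that both the highest and the lowest value belonged to the KO. The log2 fold change was 0.20 (SE 0.38; 95% interval of the fold 0.629 to 2.10), and it turned to -0.18 when KO library 16 was left out. Dll1, the Delta ligand on chromosome 17 from 15367354 to 15376932, had 13 to 37 counts per library in the KO and 29 to 57 in the WT. Its level was 1.22, 1.83 and 1.43 CPM in KO libraries 14, 16 and 18 against 1.53, 2.25 and 1.11 CPM in WT libraries 13, 15 and 17. The genotypes overlapped, and the 95% interval of the fold ran from 0.469 to 1.75.

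Rbpj, the DNA-binding partner of the cut receptor (chromosome 5, 53555779 to 53657445), had the smallest p of the 10. It stood at 22.1, 20.3 and 17.5 CPM in KO libraries 14, 16 and 18, against 27.1, 25.4 and 20.1 CPM in WT libraries 13, 15 and 17. Wild-type library 17 alone fell within the KO range. The mean was 19.97 ± 2.31 CPM in the KO and 24.2 ± 3.63 CPM in the WT (SD, n = 3 each), a log2 fold change of -0.28 (SE 0.17; 95% interval of the fold 0.6255 to 1.08; edgeR quasi-likelihood adjusted p = 1, exact permutation p = 0.3). In the authors' deposited table, with its 2 entries per library and unstated test, Rbpj had a log2 fold change of -0.28. Its p-value there was 0.0493 and its adjusted p-value 0.720. RefSeq lists 3 pseudogenes of Rbpj, so its level is uncertain to the extent that reads are shared with such copies.

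**Figure D2:**
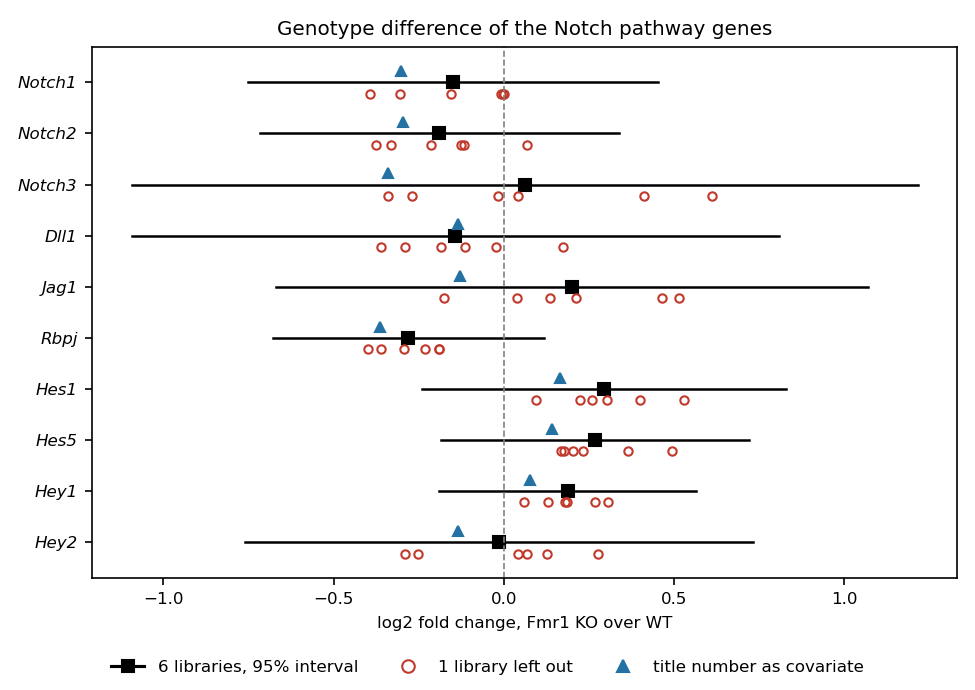
Log2 fold change of Fmr1 KO over WT (horizontal axis) for each of the 10 genes, with squares and lines for the estimate and its 95% interval from 6 libraries. Open circles show the estimates with 1 library left out and triangles those with the first number of the library title as a covariate. All 10 intervals include 0, and the circles of Notch2, Notch3, Dll1, Jag1 and Hey2 fall on both sides of it.

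The target repressors Hes1, Hes5 and Hey1 had higher means in the KO without passing the test. Hes5, the Notch target most used as a readout in neural progenitors (on chromosome 4), stood at 92.0, 95.6 and 75.95 CPM in KO libraries 14, 16 and 18. In WT libraries 13, 15 and 17 it stood at 94.0, 62.2 and 62.5 CPM. Each KO library was above WT libraries 15 and 17, and WT library 13 lay between KO libraries 14 and 16. The mean was 87.85 ± 10.5 CPM in the KO and 72.9 ± 18.3 CPM in the WT (SD, n = 3 each), a log2 fold change of 0.27 (SE 0.20; 95% interval of the fold 0.881 to 1.65; edgeR quasi-likelihood adjusted p = 1, exact permutation p = 0.3). It was 0.49 without WT library 13 (edgeR quasi-likelihood adjusted p = 0.999, unadjusted p = 0.0154), the WT library that lay among the KO. In that fit 430 of 15416 genes had an unadjusted p under 0.05. By the same test Hes5 was at 0.17 without WT library 17 (unadjusted p = 0.462) and at 0.18 without WT library 15 (unadjusted p = 0.448). Its log2 fold change was 0.084 without KO libraries 14 and 16 and 0.12 with the share of ribosomal RNA as a covariate.

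Hes1, which oscillates in dividing progenitors and is a direct RBPJ target (chromosome 16, 30065357 to 30067796), stood at 25.3, 26.6 and 20.7 CPM in KO libraries 14, 16 and 18. Its WT values were 25.6, 19.55 and 13.9 CPM in libraries 13, 15 and 17. As for Hes5, WT library 13 lay among the KO libraries and the other WT libraries lay below all of them. The log2 fold change of Hes1 was 0.29 (SE 0.23; 95% interval of the fold 0.846 to 1.78; edgeR quasi-likelihood adjusted p = 1, exact permutation p = 0.3). It was 0.53 without WT library 13 (edgeR quasi-likelihood adjusted p = 0.999, unadjusted p = 0.0418) and 0.095 without WT library 17 (same test, unadjusted p = 0.653). It was 0.098 without KO libraries 14 and 16 and 0.11 with the share of ribosomal RNA as a covariate.

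Hey1, a Hey-family repressor (chromosome 3, 8663359 to 8667038), stood at 143.4, 123.2 and 101.8 CPM in KO libraries 14, 16 and 18, against 119.5, 105.0 and 98.96 CPM in WT libraries 13, 15 and 17. Knockout libraries 14 and 16 were above every WT library and KO library 18 was within the WT range, and the log2 fold change was 0.19 (SE 0.16; 95% interval of the fold 0.876 to 1.48). Hey2, its relative known for a role in vessels and the heart (chromosome 10, 30832359 to 30842783), stood at 12.8, 21.3 and 14.2 CPM in KO libraries 14, 16 and 18, against 22.0, 16.98 and 9.41 CPM in WT libraries 13, 15 and 17. Its KO values lay inside the WT range, with a log2 fold change of -0.01 (SE 0.325; 95% interval of the fold 0.591 to 1.66).

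Libraries of 1 genotype also differed from each other. In the 8 genes of at least 8 CPM on average, the highest WT library was a median of 1.83 times the lowest, beside 1.29 times over the 9970 genes at that level. The libraries' titles carry a pair of numbers written like a date, whose first number is 5 in KO libraries 14 and 16 and WT library 13, and 6 in KO library 18 and WT libraries 15 and 17. The labels do not say what the numbers stand for. Every library with a 5 was above every library with a 6 in 5 of the 10 genes, Notch3, Jag1, Hes1, Hes5 and Hey1. The same held for 9.75% of all genes.

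Testing the title number beside the genotype in one fit, a test chosen after the values were seen, gave the size of that difference. Notch3 averaged 11.5 ± 2.53 CPM in libraries with a 5 and 5.02 ± 1.60 CPM in libraries with a 6 (SD, n = 3 each), a log2 fold change of 1.302 (SE 0.28; edgeR quasi-likelihood adjusted p = 0.0830). Hes5 averaged 93.9 ± 1.80 CPM in libraries with a 5 and 66.9 ± 7.86 CPM in libraries with a 6, with a log2 fold change of 0.45 (SE 0.13; adjusted p = 0.133). Jag1 averaged 8.76 ± 1.91 CPM in those with a 5 and 4.82 ± 0.735 CPM in those with a 6 (log2 fold change 0.90, SE 0.26; adjusted p = 0.147). None of the 10 genes passed for the title number and 0% of all genes did, but 6 of the 10 had an unadjusted p under 0.05, which was so for 18.8% of all genes. Those were Notch2, Notch3, Jag1, Hes1, Hes5 and Hey1.

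The genotype difference was also read within each title number. Among libraries with a 5, the log2 CPM of KO libraries 14 and 16 minus that of WT library 13 was -0.0036 for Hes5, 0.02 for Hes1 and 0.15 for Hey1. Among libraries with a 6, that of KO library 18 minus the mean of WT libraries 15 and 17 was 0.28 for Hes5, 0.33 for Hes1 and -0.0022 for Hey1. With the title number as a covariate, the genotype log2 fold change was 0.14 for Hes5, 0.16 for Hes1 and 0.078 for Hey1. The KO minus WT difference was negative under both title numbers in 5 of the 10 genes, Notch1, Notch2, Notch3, Dll1 and Rbpj, and Hes1 alone was positive under both. With a 5 the WT side was library 13 alone, and with a 6 the KO side was library 18 alone. Each sign therefore rests on a single library. The share of all genes negative under both is not given here, so that count has no background to be read against. For Rbpj it was -0.35 among libraries with a 5 and -0.37 among libraries with a 6, for Notch1 -0.26 and -0.28, and for Notch3 -0.32 under either number, although the log2 fold change of Notch3 over all libraries was 0.06. Notch2 had -0.54 among libraries with a 5 and -0.048 among those with a 6, and Dll1 had -0.031 and -0.14. With the title number as a covariate, the log2 fold change was -0.36 for Rbpj (adjusted p = 0.971 by edgeR's quasi-likelihood fit, unadjusted p = 0.0466), -0.30 for Notch1 and -0.34 for Notch3.

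The make-up of the pulled-down RNA also moved with the title number. The neuron markers summed to 1865 and 1583 CPM in KO libraries 14 and 16 and to 1151 CPM in WT library 13, which carry a 5, and to 2165 CPM in KO library 18 and 1946 and 2060 CPM in WT libraries 15 and 17, which carry a 6. The astrocyte marker sum went the other way by a narrow margin. It was 27797, 29254 and 30748 CPM in libraries 14, 16 and 13 and 25462, 27679 and 25941 CPM in libraries 18, 15 and 17. Most single astrocyte markers were higher on average in libraries with a 5, and only Glul and Aldh1l1 were lower. Sox9, Slc1a2, Gfap, Aqp4 and Fgfr3 were higher in each library with a 5 than in each with a 6. Aqp4 stood at 422.5, 405.2 and 420.1 CPM in libraries 14, 16 and 13 and at 187.8, 349.6 and 249.6 CPM in libraries 18, 15 and 17. In the same order Glul stood at 8616, 9067 and 10080 CPM and at 10100, 9288 and 10091 CPM. Aldh1l1 stood at 398.4, 380.2 and 433.5 CPM and at 453.2, 439 and 415.2 CPM. The endothelial marker sum was lower in each library with a 5 than in each with a 6. What part this composition, or the ribosomal RNA share of libraries 14 and 16, has in the Notch values was not tested.

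**Figure D3:**
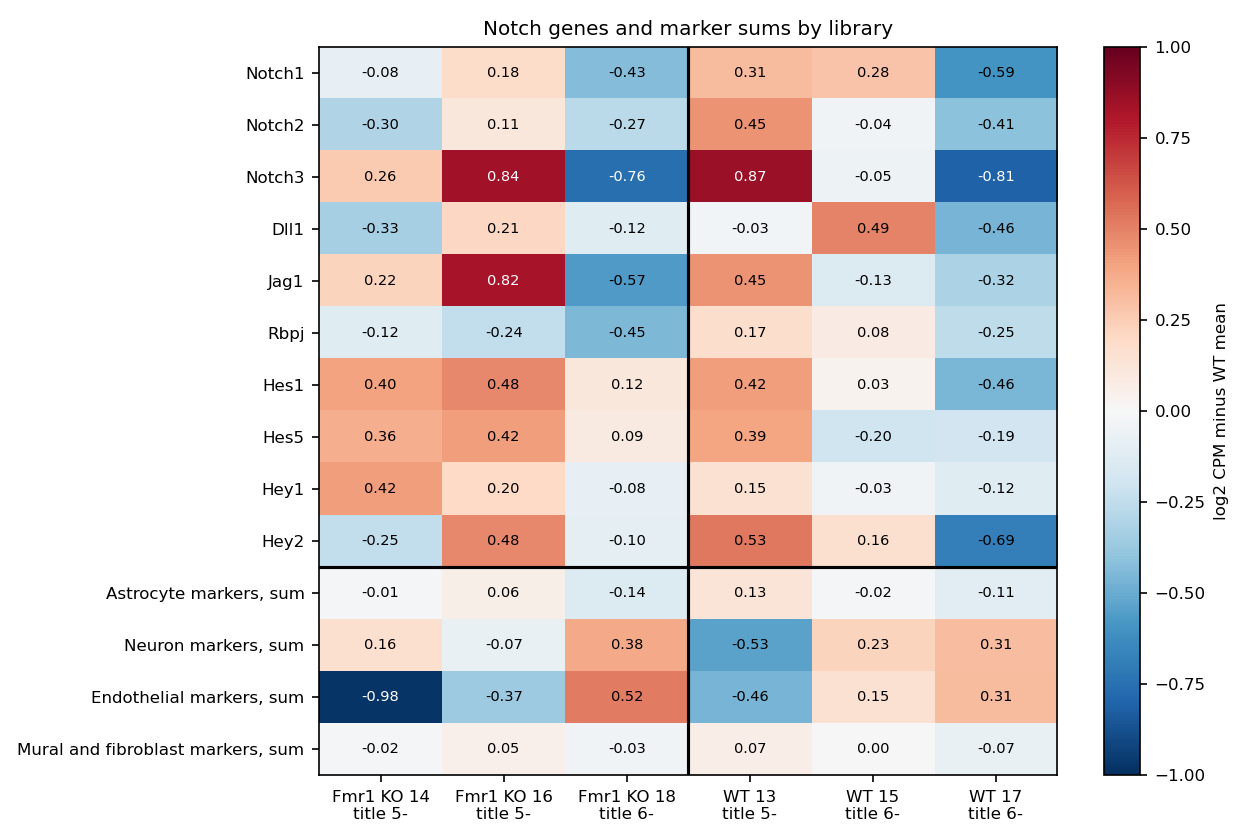
Log2 CPM of each gene, and log2 of the summed CPM of 4 marker lists, minus the WT mean (colour and printed value), for Fmr1 KO libraries left and WT libraries right of the vertical line. Hes5 stands at 0.36 and 0.42 in KO libraries 14 and 16 and at 0.39 in WT library 13, while the neuron marker sum is at -0.53 in library 13.

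By the rule for likeness of pattern, the 9962 other genes of at least 8 CPM were compared with each of the 10 over the 6 libraries by the root mean square difference of centred log2 CPM. Nearest to Hes5 was Trmt61b, which encodes a mitochondrial RNA methyltransferase, at a difference of 0.053, with 16.1, 17.7 and 14.3 CPM in KO libraries 14, 16 and 18 and 16.95, 10.7 and 10.6 CPM in WT libraries 13, 15 and 17. Nearest to Notch1 were Slc27a1, a fatty acid transport protein, at 0.050 and Cyp7b1, an oxysterol hydroxylase, at 0.056. Notch3 was nearest to Tor3a, a torsin-family ATPase, at 0.080 and Chil1, a chitinase-like secreted protein, at 0.14. With 6 libraries and this many candidates, close matches are a description of these libraries only.

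The rest of the pathway was read from 69 listed symbols, of which 68 were in the table and 61 passed the filter. Of those 61, 0 passed the threshold in either direction in edgeR's quasi-likelihood test, 30 had a positive and 31 a negative log2 fold change, and the median was -0.0046. Of the 61, 1 was at an unadjusted p under 0.05, beside 1.77% of all genes. Every KO library lay above every WT library in 4 of the 61 and below in 3, beside 2.95% and 3.25% of all genes.

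The gene at an unadjusted p under 0.05 was Heyl, another Hey-family repressor and a known Notch target. It stood at 10.7, 20.3 and 8.71 CPM in KO libraries 14, 16 and 18, against 6.86, 6.24 and 7.003 CPM in WT libraries 13, 15 and 17. The WT libraries lay close together, each KO library was above them, and KO library 16 was the highest. The mean was 13.2 ± 6.188 CPM in the KO and 6.70 ± 0.404 CPM in the WT (SD, n = 3 each), a log2 fold change of 0.96 (SE 0.32; 95% interval of the fold 1.18 to 3.21) with an unadjusted p of 0.0155 that became 1 on adjustment over all genes (edgeR quasi-likelihood, exact permutation p = 0.1). Without KO library 16 the log2 fold change was 0.53, without KO libraries 14 and 16, which leaves 1 KO library assumed to vary like the WT ones, it was 0.40, and with the share of ribosomal RNA added as a covariate it was 0.38. Heyl did not follow the title number in the way of Hes5, since WT library 13 was at 6.86 CPM.

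Nrarp, a Notch-induced feedback inhibitor, had the smallest p among the genes of receptor turnover. It stood at 193.2, 187.0 and 115.0 CPM in KO libraries 14, 16 and 18, against 139.9, 120.4 and 75.2 CPM in WT libraries 13, 15 and 17. Knockout libraries 14 and 16 were above every WT library and library 18 was not. The log2 fold change was 0.56 (SE 0.27; 95% interval of the fold 0.954 to 2.28; edgeR quasi-likelihood adjusted p = 1), and it was 0.066 without KO libraries 14 and 16. Nrarp was also higher in each library with a 5 in its title than in each with a 6, as Hes5 was. Its log2 fold change with the title number as a covariate was 0.34.

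Of the 9 protease genes 8 had negative log2 fold changes, with a median of -0.05. Psen2, a catalytic subunit of gamma-secretase, was at 7.59, 8.87 and 7.20 CPM in KO libraries 14, 16 and 18, below each of 10.3, 12.2 and 9.57 CPM in WT libraries 13, 15 and 17 (log2 fold change -0.45, SE 0.20; edgeR quasi-likelihood adjusted p = 1). Aph1a, a further gamma-secretase subunit, averaged 62.2 ± 14.35 CPM in the KO and 65.5 ± 14.5 CPM in the WT (SD, n = 3 each). Dner, a Delta-like transmembrane protein of neurons, averaged 47.4 ± 5.92 CPM in the KO and 63.1 ± 13.6 CPM in the WT (log2 fold change -0.42, SE 0.19), with the genotypes overlapping through WT library 17 at 47.9 CPM. Dll4, the ligand of endothelial tip cells, did not pass the filter.

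Genes that handle ligands and receptors also overlapped between genotypes where named here. Mib1, the ubiquitin ligase that drives ligand endocytosis, averaged 207.7 ± 36.2 CPM in the KO and 210.3 ± 12.9 CPM in the WT (SD, n = 3 each). Neurl1a, a related ligase, averaged 22.5 ± 7.55 CPM in the KO and 16.9 ± 7.30 CPM in the WT. Lfng, a glycosyltransferase that tunes which ligands a receptor answers, was at 69.1, 115.9 and 51.15 CPM in KO libraries 14, 16 and 18 against 76.65, 68.4 and 30.6 CPM in WT libraries 13, 15 and 17 (log2 fold change 0.42, SE 0.39). Its highest library was KO 16, its lowest was WT 17 and the genotypes overlapped. Furin, which cleaves the receptor during maturation, averaged 11.7 ± 2.45 CPM in the KO and 9.63 ± 1.65 CPM in the WT.

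Among cofactors of RBPJ, Snw1, a coactivator bound to the RBPJ complex, was at 43.1, 46.75 and 44.0 CPM in KO libraries 14, 16 and 18, above each of 37.6, 41.4 and 38.15 CPM in WT libraries 13, 15 and 17 (log2 fold change 0.19, SE 0.12). Hdac2, a histone deacetylase of corepressor complexes, averaged 44.6 ± 1.07 CPM in the KO and 52.85 ± 4.31 CPM in the WT (SD, n = 3 each), with every KO library below every WT library (log2 fold change -0.245, SE 0.12). Crebbp, an acetyltransferase coactivator, averaged 48.4 ± 3.78 CPM in KO and 49.3 ± 3.76 CPM in WT libraries. Aes, a Groucho-family corepressor also named Tle5, was higher in every KO library than in every WT library. It averaged 316.0 ± 4.13 CPM in KO and 291.6 ± 21.8 CPM in WT libraries. The adjusted p of each of these was 1 in edgeR's quasi-likelihood test. Nedd4, a ubiquitin ligase that acts on receptors, averaged 328.3 ± 26.6 CPM in the KO and 336.6 ± 35.65 CPM in the WT, and Bhlhe40, a repressor related to the Hes family, averaged 128.4 ± 16.8 CPM in KO and 125.2 ± 19.6 CPM in WT libraries.

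**Figure D4:**
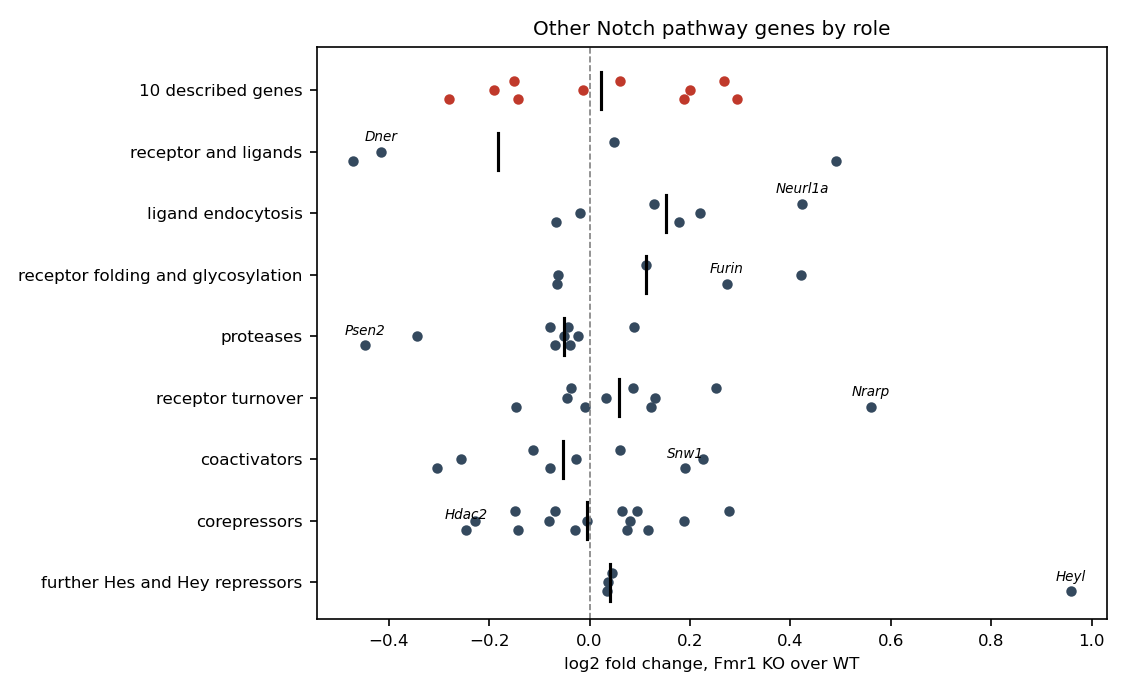
Log2 fold change of Fmr1 KO over WT (horizontal axis) for the 10 genes in the top line and the 61 other pathway genes below, by role, with the median of each line as a vertical bar and the gene of smallest p named in each role. Heyl is farthest from 0 at 0.96, and the median of the 10 genes is 0.02.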

How the data were processed

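Ribosome-bound RNA (TRAP) was sequenced as paired-end, stranded, ribosomal-RNA-depleted total RNA, per the labels' protocols. The deposited table holds RSEM expected counts, unscaled, in 12 entries, per the file headers. The submitters' processing notes name STAR 2.5.3a, RSEM 1.3.0, edgeR and mm10. The sources used here name neither the annotation release nor the strand setting. The authors' deposited comparison table gives log2 fold changes, p-values and a scaled signal per entry (not used here). Fmr1 is negative in it, so its direction was taken as KO over WT. The test behind it is not stated.

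The 2 entries of a library had a median chi-square per feature of 0.467 to 0.494, against 2.93 to 18.8 between libraries of a group. They differed by about the sampling noise in most features and were summed, rounded and counted as 1 sample. Genes were filtered with filterByExpr, scaled by TMM and tested across all 14990 genes with edgeR 4.0.16 (quasi-likelihood, Benjamini-Hochberg, R 4.3.3), with 4 residual and 8.24 total degrees of freedom. The test was checked on simulated data. DESeq2 1.42.0, edgeR's exact test and limma 3.58.1 voom were alternatives. SEs come from the F statistic. Log2 CPM used a prior count of 2.

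The 10 genes were given by name, and gene lists and the rule for named genes (in each role, the smallest p and the highest mean CPM, not corrected for length) were chosen with earlier results of these data known. For each of the 10, the 2 genes of nearest pattern were found. The ribosomal RNA covariate and the test of the title number were added after seeing the data. Sequences and positions are from RefSeq (GRCm38.p6).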

Additional observations from a re-analysis of the deposited data

How the results depend on the processing

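The 10 genes were refitted under 16 alternatives, and 138 of the 160 values kept their direction. Notch1, Rbpj, Hes1 and Hes5 kept their sign in all 16, but the size moved, and for Notch1 it came to -0.00027 without KO library 18. No gene of the 10 and none of the other pathway genes passed the threshold in any alternative, and the smallest adjusted p over the 10 was 0.867. Over all genes, 0 were called in the edgeR quasi-likelihood test, 8 with DESeq2, 9 with edgeR's exact test, 6 with no filter on low counts and 1 with the share of ribosomal RNA added as a covariate, an alternative chosen after seeing the data. Leaving out 1 library gave 0 to 2 calls, 2 without KO library 18 and 1 without WT library 15. Values of the opposite sign were -0.10 for Notch3 and -0.038 for Jag1 with limma voom, -0.34 and -0.13 with the title number as a covariate, and 8.178e-05 for Hey2 with DESeq2 and 0.077 with the first entry of each library only. Without KO libraries 14 and 16 they were -0.91 for Notch3, -0.59 for Jag1 and -0.058 for Hey1, and with the share of ribosomal RNA added as a covariate -0.83, -0.55 and -0.014 for those genes. Leaving out 1 library at a time gave log2 fold changes from -0.3923 to -0.00027 for Notch1, from -0.3738 to 0.0674 for Notch2, from -0.3413 to 0.6109 for Notch3, from -0.3597 to 0.1747 for Dll1, from -0.1751 to 0.5128 for Jag1, from -0.3978 to -0.1896 for Rbpj, from 0.095 to 0.5286 for Hes1, from 0.168 to 0.4941 for Hes5, from 0.060 to 0.3071 for Hey1 and from -0.2905 to 0.2753 for Hey2. The median over the 10 genes, 0.02 with all libraries, was 0.27 without WT library 13 and -0.28 without WT library 17. The cause of these shifts was not tested. No paired analysis was possible because the genotypes share no library number. The first title number, which both genotypes share but which does not match libraries in pairs, was fitted as a covariate instead. Dll1 had 13 to 57 counts per library. How far counting error and how far the spread between libraries set the intervals was not tested.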
